A study of Mus musculus with 15 samples.

Results

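The genes described here are the nuclear-encoded subunits of the oxidative phosphorylation system and the assembly factors and relatives that carry the same gene symbols, 87 of the 17185 genes in the count table. They were taken by symbol, with no measured value in the rule, but earlier results of these data were known when they were chosen. The rule took every gene whose symbol starts with Nduf, Uqcr or Atp5, and the 4 genes Sdha, Sdhb, Sdhc and Sdhd. It also took every gene whose symbol starts with Cox followed by 4, 5, 6, 7 or 8. Cyc1, a nuclear-encoded subunit of complex III, is outside the rule by its symbol. Complex I (NADH dehydrogenase) had 36 subunit genes and 7 assembly factors (Ndufaf1 to Ndufaf7). Complex II (succinate dehydrogenase) had 4 genes, complex III (the cytochrome bc1 complex) 8, and complex IV (cytochrome c oxidase) with its relatives 15, among them Ndufa4, which is now counted as a complex IV subunit, and Cox7a2l. Complex V (ATP synthase) had 14 genes, and 3 more carried an Atp5 symbol: Atp5s, Atp5sl and the pseudogene Atp5l-ps1, which had 5 counts in all.

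The chain lies in the inner mitochondrial membrane. Complexes I and II take electrons from NADH and succinate and pass them through ubiquinone to complex III, cytochrome c carries them to complex IV, which reduces oxygen, and the protons pumped on the way drive ATP synthesis in complex V. Most subunits are encoded in the nucleus and join a core encoded in mitochondrial DNA, and several small subunits of complex IV exist as isoforms that differ between tissues. In the intestinal epithelium, stem cells at the crypt base divide and give rise to absorptive and secretory cells, and fatty acid oxidation, which the study addresses, delivers NADH to this chain.

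The data were single-cell RNA counts from the proximal and distal small intestine and the colon of 5 mice aged 6 months. High fat diet mice 1, 2 and 3 ate a diet with 60% of kcal from fat, and control diet mice 1 and 2 ate a purified diet with 10%. All 5 mice carried the Lgr5-eGFP-IRES-CreERT2 allele, in which the Lgr5 promoter drives a green fluorescent protein and a tamoxifen-inducible Cre; this reporter is known to be silent in part of the crypts. The libraries came from Seq-Well, which catches single cells in small wells, in its version with a second strand synthesis step.

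The 15 libraries held 18919 cells, of which 4618 were called stem cells by the authors (stem-called cells below) and 14301 were not (other cells). The call was equal to at least 1 UMI, a count of 1 tagged RNA molecule, of Lgr5 or eGFP in every cell, so it depends on how deeply a cell was sequenced. All 10 genes of a stem cell marker list, Lgr5 among them, were called higher in stem-called than in other cells of the proximal and distal small intestine, and 8 of 10 in the colon. For Lgr5 the direction was fixed in advance, because the stem call is made from its UMIs. Counts were summed per mouse, organ and call, and levels are given in CPM, the count of a gene scaled to the same total of 1000000 UMIs in every sum. The sums held 27 to 617 stem-called cells with 321496 to 13694552 UMIs, and 297 to 1438 other cells with 1699260 to 28652200 UMIs. Across libraries, 16 cell barcodes occurred in more than 1 library. The replicates are 3 mice on the high fat diet and 2 on the control diet. In the main tests the 3 libraries of 1 mouse were fitted as separate units. The p-values of diets and organs measure the spread between mice within a diet and organ, pooled over all such groups. Those of stem-called against other cells measure the spread of the differences within libraries, pooled over the 15 libraries. In sums over mixed cells, fewer cells of a type and less RNA per cell cannot be told apart.

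Taken as a group, the members held 1.5% to 2.57% of all UMIs in the 15 sums of stem-called cells and 1.55% to 2.72% in the 15 sums of other cells. Counts were most numerous for complex V, with 1993201 UMIs over all cells, followed by complex I with 1710572, complex IV with 1258756, complex III with 826676 and complex II with 421635. The 7 complex I assembly factors together had 71990. These totals depend on how many genes each complex has and were not corrected for gene length. Cox6a2, the heart and skeletal muscle isoform of subunit 6A, was close to 0. Atp5l and Cox7c have processed pseudogenes elsewhere in the genome, so their counts are uncertain.

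Promoter sequences of the members were searched for short motifs of factors known to act on respiratory genes. Of the 87 members, 73 matched a RefSeq promoter (79 promoters, from 250 bases before to 50 bases after a transcript start, GRCm38.p6). The motif of nuclear respiratory factor 1, searched as GCGCATGCG, occurred in 9 of 79 member promoters (11.4%), those of Atp5k, Atp5l, Cox6a1, Ndufa8, Ndufa11, Ndufaf4, Ndufaf5, Uqcr11 and Uqcrc1, against 1.75% of all 32851 promoters. The site of the estrogen-related receptors, TCAAGGTCA, occurred in those of Atp5g3 and Sdhd (2.53% against 0.423%). The ETS core CCGGAAG occurred in 17 promoters (21.5% against 8.86%), the YY1 motif AAGATGGCG in 9 (11.4% against 1.40%), and TATAAA in 6 (7.59% against 13.6%). Counted by gene, the 73 members were also set against 17492 protein-coding genes. The shares were 12.3% against 2.61% for nuclear respiratory factor 1 and 2.74% against 0.377% for the estrogen-related receptors. They were 23.3% against 12.9% for ETS, 11.0% against 2.14% for YY1 and 6.85% against 14.8% for TATAAA. Both strands were searched, no motif is part of another, and a match is a description of the letters, not a bound site. The 250 bases before the start are printed for 3 members whose level was lower in stem-called cells in every organ and whose promoter holds 1 of the first 2 motifs, and for Cox7a1 and Cox7a2l, paralogs that went in opposite directions and hold none of the 5 motifs in this window. Capitals mark the estrogen-related receptor site, read on the opposite strand, in Atp5g3 and the nuclear respiratory factor 1 motif in Atp5k and Ndufa11, where matches on both strands overlap and mark 10 letters.
Atp5g3, chr2:73911327-73911576, minus strand: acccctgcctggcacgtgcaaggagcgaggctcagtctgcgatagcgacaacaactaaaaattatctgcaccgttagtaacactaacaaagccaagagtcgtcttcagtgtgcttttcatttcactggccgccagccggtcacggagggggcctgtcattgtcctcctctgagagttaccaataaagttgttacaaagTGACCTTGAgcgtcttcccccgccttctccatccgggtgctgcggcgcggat
Atp5k, chr5:108434400-108434649, minus strand: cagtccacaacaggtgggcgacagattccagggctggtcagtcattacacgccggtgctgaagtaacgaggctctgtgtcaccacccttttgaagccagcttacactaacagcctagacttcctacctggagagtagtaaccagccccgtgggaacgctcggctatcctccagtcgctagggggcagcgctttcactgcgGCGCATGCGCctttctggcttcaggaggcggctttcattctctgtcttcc
Ndufa11, chr17:56717512-56717761, plus strand: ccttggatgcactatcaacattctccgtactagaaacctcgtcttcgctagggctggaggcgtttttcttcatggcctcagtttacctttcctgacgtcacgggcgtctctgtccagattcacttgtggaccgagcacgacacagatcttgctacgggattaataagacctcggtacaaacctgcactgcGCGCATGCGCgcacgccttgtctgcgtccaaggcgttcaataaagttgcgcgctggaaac
Cox7a1, chr7:30183921-30184170, plus strand: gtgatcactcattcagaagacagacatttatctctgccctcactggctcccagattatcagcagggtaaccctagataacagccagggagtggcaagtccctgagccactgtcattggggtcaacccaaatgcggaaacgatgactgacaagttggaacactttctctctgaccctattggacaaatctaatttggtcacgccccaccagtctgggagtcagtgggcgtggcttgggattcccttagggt
Cox7a2l, chr17:83514334-83514583, minus strand: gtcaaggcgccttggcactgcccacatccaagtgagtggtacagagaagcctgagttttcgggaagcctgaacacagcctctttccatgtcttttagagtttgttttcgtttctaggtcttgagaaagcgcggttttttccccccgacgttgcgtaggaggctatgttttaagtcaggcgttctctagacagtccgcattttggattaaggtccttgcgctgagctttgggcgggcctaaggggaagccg

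The first comparison was between stem-called cells and other cells of the same library. Most members were estimated lower in stem-called cells, by a small amount, and most calls were in the proximal small intestine. Of 85 members tested there, 68 were called lower and 2 higher (edgeR quasi-likelihood test, adjusted p under 0.05), against 19.3% of all 13544 genes called lower and 14.1% called higher. In the distal small intestine 49 were called lower and 2 higher (22.1% and 18.1% of all genes), and in the colon 29 and 2 (22.1% and 19.2%). The median log2 difference, stem-called minus other, was -0.29 in the proximal small intestine, -0.23 in the distal small intestine and -0.17 in the colon, while the medians of all genes were -0.01, -0.00 and -0.01. The estimate was below 0 in all 3 organs for 74 of 85 members, and 24 members were called lower in all 3. The same counts over all genes are not given here, so these have no background to be set against. The organs come from the same mice, so a repeat across organs is not independent.

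The summed level of all members was lower in stem-called cells in 13 of 15 libraries. In the proximal small intestine the log2 ratio of the sums, stem-called over other, was -0.08, -0.29 and -0.23 in high fat diet mice 1, 2 and 3, and -0.27 and -0.26 in control diet mice 1 and 2. In the distal part it was -0.08, -0.20 and -0.18 in high fat diet mice, and -0.15 and -0.22 in control mice. In the colon it was 0.17, 0.17 and -0.22 in high fat diet mice, and -0.20 and -0.19 in control mice. The colons of high fat diet mice 1 and 2 therefore went the other way from the remaining 13 libraries. These 2 libraries had the fewest stem-called cells, 79 and 27, and those cells were deeper than the other cells, with medians of 18430 against 4263.5 UMIs per cell in mouse 1 and 10401 against 2588 in mouse 2. The part of depth in this was not tested. In the colon, 41 members were called without high fat diet mouse 1 (39 lower) and 30 without mouse 2 (28 lower).

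**Figure D1:**
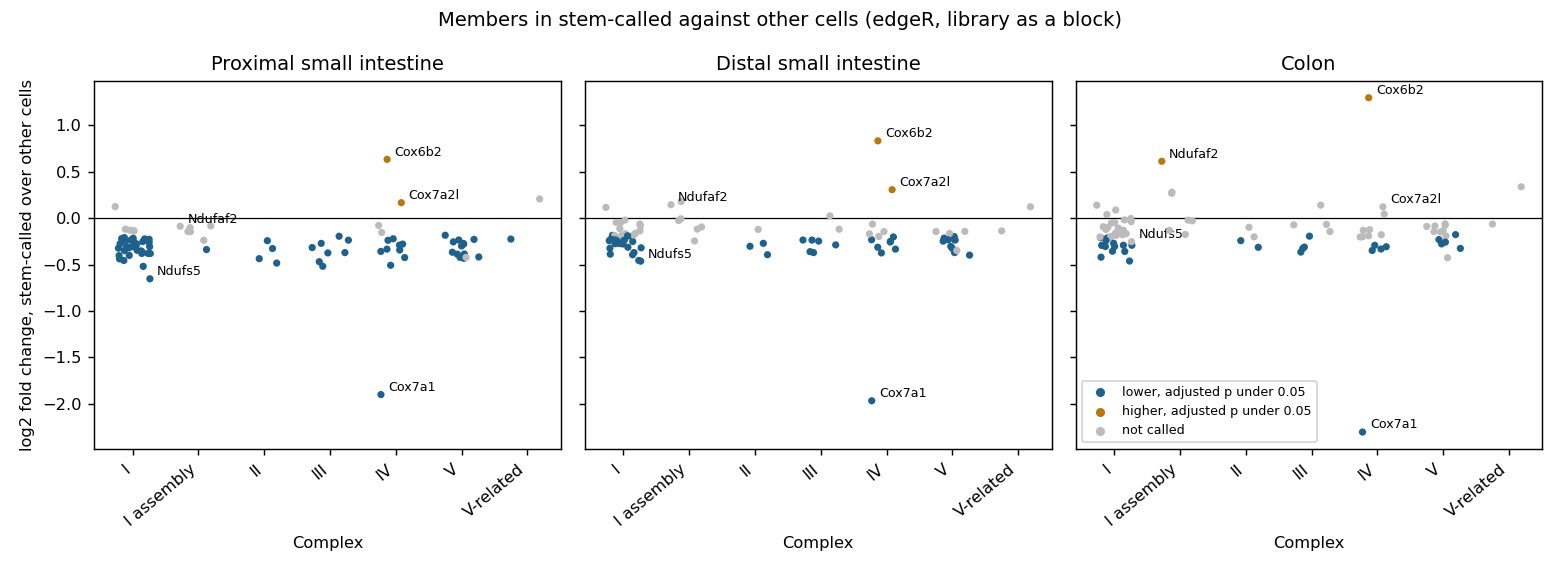
Each point is the log2 difference of 1 member between stem-called and other cells, by complex, in the proximal and distal small intestine and the colon; blue points were called lower, orange points higher and grey points were not called. Most points of complexes I to V lie between 0 and -0.5, Cox7a1 lies far below them at -1.90, -1.97 and -2.31, and Cox6b2 and Cox7a2l lie above 0. Among the assembly factors and the relatives of complex V, Ndufaf2 lies above 0 in the distal small intestine and the colon, and Atp5s in every organ.

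The counts depended on single mice and on the pairing of cells within a library. The number called in the proximal small intestine was 70 with all mice and fell to 39 without high fat diet mouse 2 and to 45 and 42 without control diet mice 1 and 2. In the distal part it was 51 with all mice and 32, 32 and 19 without the same mice. In the colon it was 31 with all mice, 15 without high fat diet mouse 3 and 8 without control diet mouse 2. When each library was not treated as a block, 4, 2 and 2 members were called in the 3 organs. With the stem call repeated on cells thinned to 3000 UMIs each, 66, 58 and 51 members were called lower, the colon count without the stem-called sum of high fat diet mouse 2, which fell under 20 cells. The median log2 differences were then -0.29, -0.26 and -0.29 in the proximal and distal small intestine and the colon. The order of the organs in the main medians was not seen there. The counts called lower were 70, 61 and 58 when cells with a UMI of an immune marker were left out.

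Complex I followed the general pattern. Of its 36 subunit genes, 31 were called lower in the proximal small intestine, 22 in the distal small intestine and 13 in the colon, 10 of them in all 3 organs (Ndufa11, Ndufa13, Ndufb3, Ndufb7, Ndufb8, Ndufb9, Ndufb10, Ndufc1, Ndufs4 and Ndufv3), and none was called higher. Ndufb10, an accessory subunit of the membrane arm, stood in proximal stem-called cells at 194, 159.6 and 150.3 CPM in high fat diet mice 1 to 3 and at 162 and 193 CPM in control mice 1 and 2. In other cells it stood at 228, 223 and 212 CPM in high fat diet mice and at 238 and 266 CPM in control mice. All 5 libraries were lower in stem-called cells, and the 2 sets of 5 values did not overlap. The log2 differences of Ndufb10 were -0.52 (SE 0.07, adjusted p = 2.22e-05), -0.37 (adjusted p = 0.000494) and -0.36 (adjusted p = 0.00097) in the proximal and distal small intestine and the colon, and all 3 remained called without any 1 mouse.

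Ndufb3, another accessory subunit, was lower in stem-called cells of all 15 libraries. Its levels in the proximal small intestine were 51.1, 48.1 and 46.9 CPM in stem-called cells of high fat diet mice and 40.4 and 58.1 CPM in those of control mice, against 66.9, 63.5 and 54.2 CPM and 49.2 and 77.3 CPM in other cells of the same mice. The 2 sets of values overlapped between mice, while each mouse was lower in its stem-called cells; the log2 differences were -0.40 (adjusted p = 0.000155), -0.32 (adjusted p = 0.00148) and -0.21 (adjusted p = 0.0382). The distal call was lost without control diet mouse 2 (adjusted p = 0.0536). Ndufs5 had the most negative estimate of complex I in the proximal small intestine, -0.65 (SE 0.13, adjusted p = 0.00137), with 8.59, 9.53 and 12.5 CPM in stem-called cells of high fat diet mice and 4.25 and 15.8 CPM in those of control mice, against 11.0, 15.4 and 17.7 CPM and 6.83 and 24.3 CPM in other cells. It was also called in the distal small intestine (-0.46, adjusted p = 0.0207) but not in the colon (-0.25, adjusted p = 0.248). Ndufv1, which binds the flavin that accepts electrons from NADH, had -0.25 (adjusted p = 0.0314) in the proximal small intestine and was not called in the distal small intestine (-0.18, adjusted p = 0.112) or the colon (-0.02). Ndufa2, Ndufa7 and Ndufb11 were among the subunits not called in any organ, and Ndufa7 was estimated above 0 in each (0.12, 0.12 and 0.14, adjusted p = 0.147, 0.18 and 0.119).

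Few of the complex I assembly factors were called. Of the 7, 1 was called lower in the proximal small intestine (19.3% of all genes) and none in the distal small intestine or the colon (22.1% in each). Ndufaf1, Ndufaf3, Ndufaf5, Ndufaf6 and Ndufaf7 were called in no organ. The factors had fewer UMIs than most subunits, 6202 (Ndufaf3) to 21533 (Ndufaf4). They were lower in stem-called cells of 3 (Ndufaf2 and Ndufaf6) to 14 (Ndufaf3) of 15 libraries. Whether the factors differ from the subunits was not tested. Ndufaf2, a chaperone of late complex I assembly, was called higher in stem-called cells of the colon, at 82.2, 59.1 and 87.1 CPM in those of high fat diet mice and 104 and 98.7 CPM in those of control mice, against 64.2, 22.4 and 48.6 CPM and 95.7 and 45.0 CPM in other cells. Each of the 5 colons was higher in stem-called cells (log2 0.61, SE 0.12, adjusted p = 0.000743). The gene was not called in the proximal (-0.09) or distal small intestine (0.15, adjusted p = 0.345). The test of the difference between the organs called Ndufaf2 (0.58) and Ndufa4 (0.29), colon minus small intestine, and no other member, against 1.84% of genes called higher and 2.21% called lower; neither remained called without control diet mouse 2.

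Complex II, which oxidises succinate and is part of the citric acid cycle, had all 4 genes called lower in the proximal small intestine, 3 in the distal small intestine and 2 in the colon. Sdhb, the iron-sulfur subunit, stood at 315, 345 and 307 CPM in stem-called cells of high fat diet mice and 311 and 386 CPM in those of control mice in the proximal small intestine. In other cells it stood at 344, 509 and 418 CPM and at 432 and 527 CPM. All 5 mice were lower in stem-called cells, although the lowest other cells, from high fat diet mouse 1, lay within the range of the stem-called values. The log2 differences of Sdhb were -0.48 (SE 0.07, adjusted p = 0.000106), -0.39 (adjusted p = 0.000591) and -0.31 (adjusted p = 0.00455), the last of them not called without control diet mouse 2 (-0.28, adjusted p = 0.0963). Sdhd, a membrane anchor, had -0.44 (adjusted p = 0.000164), -0.30 (adjusted p = 0.00302) and -0.24 (adjusted p = 0.0165). Its distal call was lost without control diet mouse 2 (adjusted p = 0.0568). Its colon call was lost without high fat diet mouse 3 or control diet mouse 2 (adjusted p = 0.108 and 0.24). Sdha, the flavoprotein, was called in the proximal small intestine only (-0.24, SE 0.06, adjusted p = 0.00769), with -0.12 (adjusted p = 0.149) and -0.10 (adjusted p = 0.262) in the distal small intestine and the colon. The proximal call of Sdha was lost when high fat diet mouse 2, control diet mouse 1 or control diet mouse 2 was left out (adjusted p = 0.0762, 0.0685 and 0.0772).

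In complex III, all 8 genes were called lower in the proximal small intestine, 6 in the distal small intestine and 4 in the colon (Uqcr11, Uqcrb, Uqcrfs1 and Uqcrq in all 3). Uqcrfs1, the Rieske iron-sulfur protein, had 301, 391 and 294 CPM in proximal stem-called cells of high fat diet mice and 269 and 323 CPM in those of control mice, against 347, 571 and 428 CPM and 368 and 457 CPM in other cells. It was lower in stem-called cells of every mouse, although the 2 sets of values overlapped between mice; the log2 differences were -0.52 (SE 0.08, adjusted p = 0.00018), -0.37 (adjusted p = 0.00251) and -0.31 (adjusted p = 0.00989). Its colon call was lost when the third high fat diet mouse (-0.20, adjusted p = 0.0754) or control diet mouse 2 (-0.24, adjusted p = 0.185) was left out, and its distal call without control diet mouse 2 (-0.34, adjusted p = 0.0577). Uqcrc1, a core protein, had -0.37 (adjusted p = 0.00328) and -0.29 (adjusted p = 0.0146) in the proximal and distal small intestine and was not called in the colon (-0.07, adjusted p = 0.599). Its proximal call was lost without control diet mouse 2 (adjusted p = 0.0518). Its distal call was lost when high fat diet mouse 2 or control diet mouse 2 was left out (adjusted p = 0.0508 and 0.171).

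Complex IV held Cox7a1, with the most negative estimate of all members in each organ, and the paralogs Cox6b2 and Cox7a2l, which went the other way. Of 14 members tested, 10 were called lower in the proximal small intestine, 8 in the distal small intestine and 5 in the colon. The 3 paralogs of the subunit 7A family differed from each other. Cox7a1, the isoform known from heart and skeletal muscle, had 13.7, 11.5 and 7.82 CPM in proximal stem-called cells of high fat diet mice and 6.80 and 12.5 CPM in those of control mice. In other cells of the same libraries it had 25.7, 41.1 and 35.0 CPM and 20.9 and 58.0 CPM. No value overlapped between the populations.

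In the distal small intestine Cox7a1 had 3.27, 4.98 and 6.75 CPM in stem-called cells of high fat diet mice and 3.30 and 17.3 CPM in those of control mice, against 13.3, 24.8 and 23.0 CPM and 17.9 and 62.1 CPM in other cells. In the colon it had 4.91, 9.33 and 6.02 CPM and 2.96 and 6.24 CPM in stem-called cells, against 5.50, 15.9 and 30.1 CPM and 9.42 and 47.6 CPM in other cells. The colon stem-called values rest on few counts, 8, 3 and 26 in high fat diet mice and 5 and 16 in control mice. The distal ones rest on 15, 8 and 66 counts and on 6 and 223 counts. Every one of the 15 libraries was lower in stem-called cells, least so the colon of high fat diet mouse 1, and control diet mouse 2 had the highest other cells in each organ. The log2 differences of Cox7a1 were -1.90 (SE 0.18, adjusted p = 1.01e-06), -1.97 (SE 0.21, adjusted p = 1.68e-06) and -2.31 (SE 0.29, adjusted p = 1.44e-05) in the proximal and distal small intestine and the colon. They remained called in every alternative analysis that was run.

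Cox7a2, the isoform found in most tissues, was lower in stem-called cells of all 15 libraries as well, but by far less. Its proximal levels were 403, 247 and 174 CPM in stem-called cells of high fat diet mice and 270.1 and 265 CPM in those of control mice, against 463, 339 and 222 CPM and 353 and 349 CPM in other cells. The log2 differences were -0.42 (SE 0.07, adjusted p = 0.000166), -0.33 (SE 0.07, adjusted p = 0.00119) and -0.31 (SE 0.07, adjusted p = 0.00289), and the colon call was lost without control diet mouse 2 (-0.28, adjusted p = 0.0681). Cox7a2l, a relative of both that is known as a factor joining complexes III and IV into supercomplexes, was higher in stem-called cells of all 15 libraries. Its distal levels were 259, 179 and 111 CPM in stem-called cells of high fat diet mice and 248 and 198 CPM in those of control mice, against 219, 146 and 98.5 CPM and 166 and 155 CPM in other cells. The mice differed from each other by more than the 2 populations did, yet each mouse went the same way; the log2 difference was 0.31 (SE 0.06, adjusted p = 0.000436). In the proximal small intestine it was 0.17 (SE 0.06, adjusted p = 0.0273), a call lost when high fat diet mouse 2 or 3 or control diet mouse 2 was left out (adjusted p = 0.0509, 0.0803 and 0.173), and in the colon it was 0.12 and not called (adjusted p = 0.116).

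**Figure D2:**
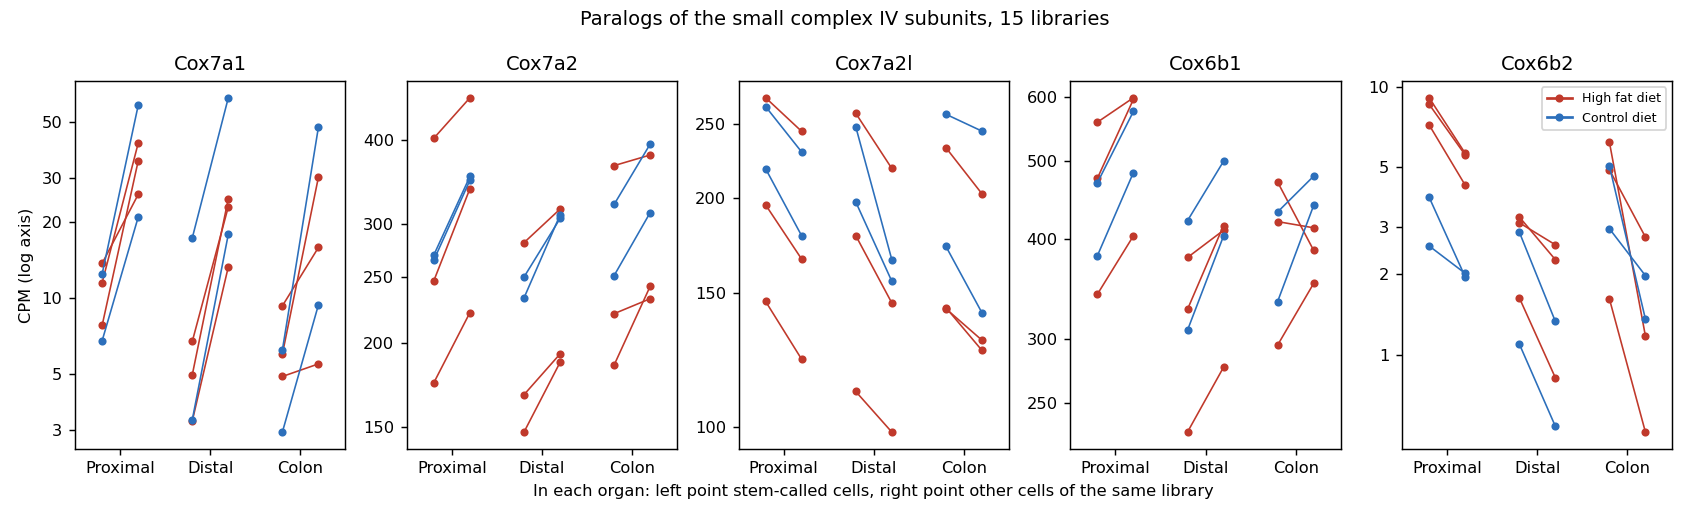
CPM (log axis) of Cox7a1, Cox7a2, Cox7a2l, Cox6b1 and Cox6b2 in stem-called cells (left point) and other cells (right point) of each of the 15 libraries, joined by a line, with high fat diet mice in red and control diet mice in blue. Lines rise towards other cells in all 15 libraries for Cox7a1 and Cox7a2 and fall in all 15 for Cox7a2l and Cox6b2.

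The paralogs of subunit 6B also went apart. Cox6b1, the isoform of most tissues, was called lower in the proximal (log2 -0.33, SE 0.08, adjusted p = 0.00393) and distal small intestine (-0.31, SE 0.08, adjusted p = 0.00537) and not in the colon (-0.19, adjusted p = 0.0782). The proximal call of the gene was lost without high fat diet mouse 2 (adjusted p = 0.0539). The distal one was lost without control diet mouse 1 (adjusted p = 0.0527). Cox6b2, known as the testis isoform, was rare, with 20, 41 and 35 counts in proximal stem-called cells of high fat diet mice and 21 and 53 counts in those of control mice. That gave 8.59, 9.09 and 7.20 CPM and 2.55 and 3.87 CPM, against 5.56, 5.64 and 4.29 CPM and 2.01 and 1.95 CPM in other cells. The distal stem-called sums held 15, 5 and 16 counts in high fat diet mice and 2 and 37 in control mice. Those of the colon held 8, 2 and 7 counts and 5 and 13 counts, so the direction in several libraries rests on few UMIs. Stem-called cells were higher in all 15 libraries, and the log2 differences were 0.64 (SE 0.21, adjusted p = 0.0275), 0.83 (SE 0.27, adjusted p = 0.0227) and 1.30 (SE 0.32, adjusted p = 0.00366) in the proximal and distal small intestine and the colon. None of the 3 was called without control diet mouse 2 (adjusted p = 0.334, 0.465 and 0.176). The proximal call was also lost without high fat diet mouse 2 or 3 (adjusted p = 0.068 and 0.0623). The distal call was also lost without high fat diet mouse 3 (adjusted p = 0.0861).

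Of the remaining complex IV genes, Cox5a, a subunit on the matrix side, had 346, 293 and 189.6 CPM in proximal stem-called cells of high fat diet mice and 297 and 269 CPM in those of control mice, against 419, 421 and 269 CPM and 409 and 367 CPM in other cells. Every mouse was lower in stem-called cells, and the log2 differences were -0.51 (SE 0.08, adjusted p = 8.24e-05), -0.37 (adjusted p = 0.00105) and -0.35 (adjusted p = 0.00232); the colon call was lost without control diet mouse 2 (-0.31, adjusted p = 0.0634). Cox6a1, the isoform of 6A in most tissues, had -0.29 (adjusted p = 0.0145), -0.26 (adjusted p = 0.0255) and -0.33 (adjusted p = 0.00685). Its proximal call was lost when high fat diet mouse 2 or either control mouse was left out (adjusted p = 0.0843 to 0.0967). Its distal call was lost without each mouse except high fat diet mouse 1 (adjusted p = 0.0579 to 0.16). Its colon call was lost without control diet mouse 2 (adjusted p = 0.17). Cox4i1, the main isoform of subunit 4, was not called in any organ (-0.15, -0.06 and -0.13, adjusted p = 0.102, 0.501 and 0.154). Ndufa4 was lower in the proximal (-0.28, SE 0.05, adjusted p = 0.000727) and distal small intestine (-0.20, SE 0.06, adjusted p = 0.00786) and not called in the colon (0.05, adjusted p = 0.588). Its distal call was lost without either control mouse (adjusted p = 0.0602 and 0.0704).

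In complex V, 13 of 14 genes were called lower in the proximal small intestine, 10 in the distal small intestine and 5 in the colon. Atp5g1 and Atp5g3 encode the same c subunit of the membrane rotor. Atp5g1 was lower in stem-called cells of all 15 libraries, with proximal levels of 121, 66.5 and 47.5 CPM in those of high fat diet mice and 89.4 and 75.4 CPM in those of control mice, against 130.2, 83.7 and 58.9 CPM and 119 and 107 CPM in other cells. The ranges overlapped between mice; the log2 differences were -0.42 (SE 0.07, adjusted p = 0.000186), -0.40 (adjusted p = 0.000462) and -0.33 (adjusted p = 0.00359). Atp5g3 had -0.42 (adjusted p = 0.000555), -0.30 (adjusted p = 0.00553) and -0.28 (adjusted p = 0.0117). Its colon call was lost without high fat diet mouse 3 or control diet mouse 2 (adjusted p = 0.0873 and 0.189). Its distal call was lost without control diet mouse 2 (adjusted p = 0.0818). Atp5k, the small subunit e of the membrane part, had -0.43 (adjusted p = 0.000312), -0.37 (adjusted p = 0.00128) and -0.26 (adjusted p = 0.0189). The colon call was lost without high fat diet mouse 3 or either control mouse (adjusted p = 0.145, 0.0882 and 0.112). Atp5b, the catalytic beta subunit, had -0.27 (adjusted p = 0.0113) and -0.20 (adjusted p = 0.0487) in the small intestine and was not called in the colon (-0.06, adjusted p = 0.574). Atp5l and Atp5s were called in no organ, the second with estimates of 0.21, 0.12 and 0.34 (adjusted p = 0.264, 0.546 and 0.132).

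Other genes of the pathway were counted from 4 lists. Of all genes, 19.3%, 22.1% and 22.1% were called lower and 14.1%, 18.1% and 19.2% higher in the proximal and distal small intestine and the colon. Of 10 mitochondrially encoded respiratory chain genes tested, 2 were called lower in proximal stem-called cells (mt-Nd3 at -0.50 and mt-Nd5 at -0.24), 0 in the distal small intestine and 1 in the colon (mt-Co3 at -1.82, adjusted p = 0.0439), with medians of -0.17, -0.02 and -0.07. These shares of 20%, 0% and 10% were not above those of all genes by more than a fraction of a gene. The list of electron carriers and assembly factors that are not members also names Cyc1, the complex III subunit outside the rule. Of the 37 genes tested from this list, 16, 10 and 4 were called lower and 0, 1 and 2 higher in the 3 organs. The lower calls were 43.2%, 27.0% and 10.8% of the list, the last below the share of all genes. Cycs, which encodes cytochrome c, had -0.54 (adjusted p = 0.00168), -0.39 (adjusted p = 0.0179) and -0.54 (adjusted p = 0.00775). Of 13 citric acid cycle genes, 10, 7 and 5 were called lower (76.9%, 53.8% and 38.5%) and none higher. Mdh2, the mitochondrial malate dehydrogenase, had -0.79 (adjusted p = 3.55e-06) in the proximal small intestine, and Cs, citrate synthase, had -0.42, -0.30 and -0.29 in the 3 organs.

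Of 15 regulators of mitochondrial genes tested, 5, 3 and 3 were called lower and 2, 4 and 4 higher. The lower calls were 33.3%, 20% and 20% of the list, against 19.3%, 22.1% and 22.1% of all genes. The higher calls were 13.3%, 26.7% and 26.7%, against 14.1%, 18.1% and 19.2%. The estrogen-related receptors Esrra and Esrrg went opposite ways: Esrra had -0.51 (adjusted p = 0.000628), -0.40 (adjusted p = 0.00478) and -0.45 (adjusted p = 0.00403), and Esrrg had 1.13 (adjusted p = 2.77e-05), 1.87 (adjusted p = 1.52e-06) and 1.73 (adjusted p = 3.58e-05). Ppara, a fatty acid receptor, was lower in all 3 organs (-0.87, -0.81 and -0.80), and Ppargc1a, a coactivator of respiratory genes, was lower in the proximal small intestine (-0.87, adjusted p = 0.00174). Tfam, which packages mitochondrial DNA, was called higher in the distal small intestine (0.27) and the colon (0.55).

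Cell type markers moved with this comparison. The summed level of 9 enterocyte markers in the proximal small intestine was 1136 to 2350 CPM in stem-called cells of high fat diet mice and 753 to 896 CPM in those of control mice, against 4186 to 4667 CPM and 2279 to 2917 CPM in other cells, and all 9 were called lower in stem-called cells. Distally, 8 of 9 were. In the colon 2 of 9 were called lower, 3 were at 0, and the sums were 258 to 434 CPM and 317 to 360 CPM in stem-called cells against 242 to 462 CPM and 498 to 512 CPM in other cells. The 6 colonocyte markers, all called lower in stem-called cells of the colon, summed to 12.4 to 418 CPM in those of high fat diet mice and 99.3 to 838 CPM in those of control mice, against 77.0 to 2590 CPM and 436 to 4953 CPM in other cells. Paneth cell markers went the other way in the distal small intestine, where 5 of 6 were called higher in stem-called cells, at 1897 to 16365 CPM and 2234 to 2813 CPM, against 1453 to 6838 CPM and 654 to 655 CPM in other cells. Goblet cell markers (6 of 7 in the table) summed to 666 to 1577 CPM and 326 to 704 CPM in proximal stem-called cells, against 2567 to 3095 CPM and 2676 to 2699 CPM in other cells. The 3 general immune markers summed to 21.5 to 60.7 CPM and 24.2 to 50.3 CPM in stem-called cells of the colon, against 96.9 to 962 CPM and 152 to 188 CPM in other cells. The part of these cell types in the differences of the members was not tested.

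The second comparison was between organs. Members were lower in the distal than in the proximal small intestine, and few of them passed the test unless the mouse was used as a block. The estimate, distal minus proximal, was below 0 for 84 of 85 members in stem-called cells (median -0.26, all genes 0.00) and for 84 of 86 in other cells (median -0.38, all genes -0.02). No member was called in stem-called cells (3.78% of 12339 genes were called higher and 1.69% lower), and 5 were called lower in other cells (4% of 14307 genes higher and 2.32% lower). Samples of the same mouse deviated together, and with the mouse as a block 14 members were called lower in stem-called cells (4.1% of all genes lower, 6.73% higher) and 40 in other cells (6.72% lower, 7.76% higher), with none higher in either.

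The 5 members called lower in distal other cells without the block were Sdha, Ndufs1, Ndufb6, Ndufaf4 and Atp5g3. Sdha had 556, 443 and 484 CPM in distal other cells of high fat diet mice and 577 and 484 CPM in those of control mice, against 629.5, 684 and 677 CPM and 844 and 665 CPM in proximal other cells. No distal value reached the lowest proximal value (log2 -0.49, SE 0.12, adjusted p = 0.029). Ndufs1, the largest iron-sulfur subunit of complex I, had 174, 164 and 176 CPM in distal other cells of high fat diet mice and 152 and 169 CPM in those of control mice, against 209.8, 247 and 254 CPM and 217 and 220.0 CPM in proximal ones, again without overlap (-0.48, SE 0.11, adjusted p = 0.0211). Atp5g3 had 496, 402 and 538 CPM and 520.1 and 696 CPM in distal other cells, against 789, 687 and 661 CPM and 841 and 825 CPM in proximal ones, and only the distal library of control diet mouse 2 lay within the proximal range (-0.54, SE 0.13, adjusted p = 0.0271). Without any 1 of the 5 mice the count was 0, except for 1 without high fat diet mouse 3. Under the block, complex I gave 14 of the 40 calls, its assembly factors 2, complex II 4, complex III 5, complex IV 7 and complex V 8.

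In stem-called cells, the 14 members called lower in the distal small intestine with the mouse as a block were Ndufa11, Ndufc1 and Ndufs1 of complex I, Sdha, Sdhb and Sdhc of complex II, Uqcrc1 and Uqcrq of complex III, Cox6a1, Cox6b1 and Cox6b2 of complex IV, and Atp5g3, Atp5j and Atp5k of complex V, with log2 differences of -1.16 to -0.30. Cox6b2 had 3.27, 3.11 and 1.64 CPM in distal stem-called cells of high fat diet mice and 1.10 and 2.87 CPM in those of control mice, against 8.59, 9.09 and 7.20 CPM and 2.55 and 3.87 CPM in proximal ones. Each mouse was lower in its distal sample, while the 2 sets of values overlapped.

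**Figure D3:**
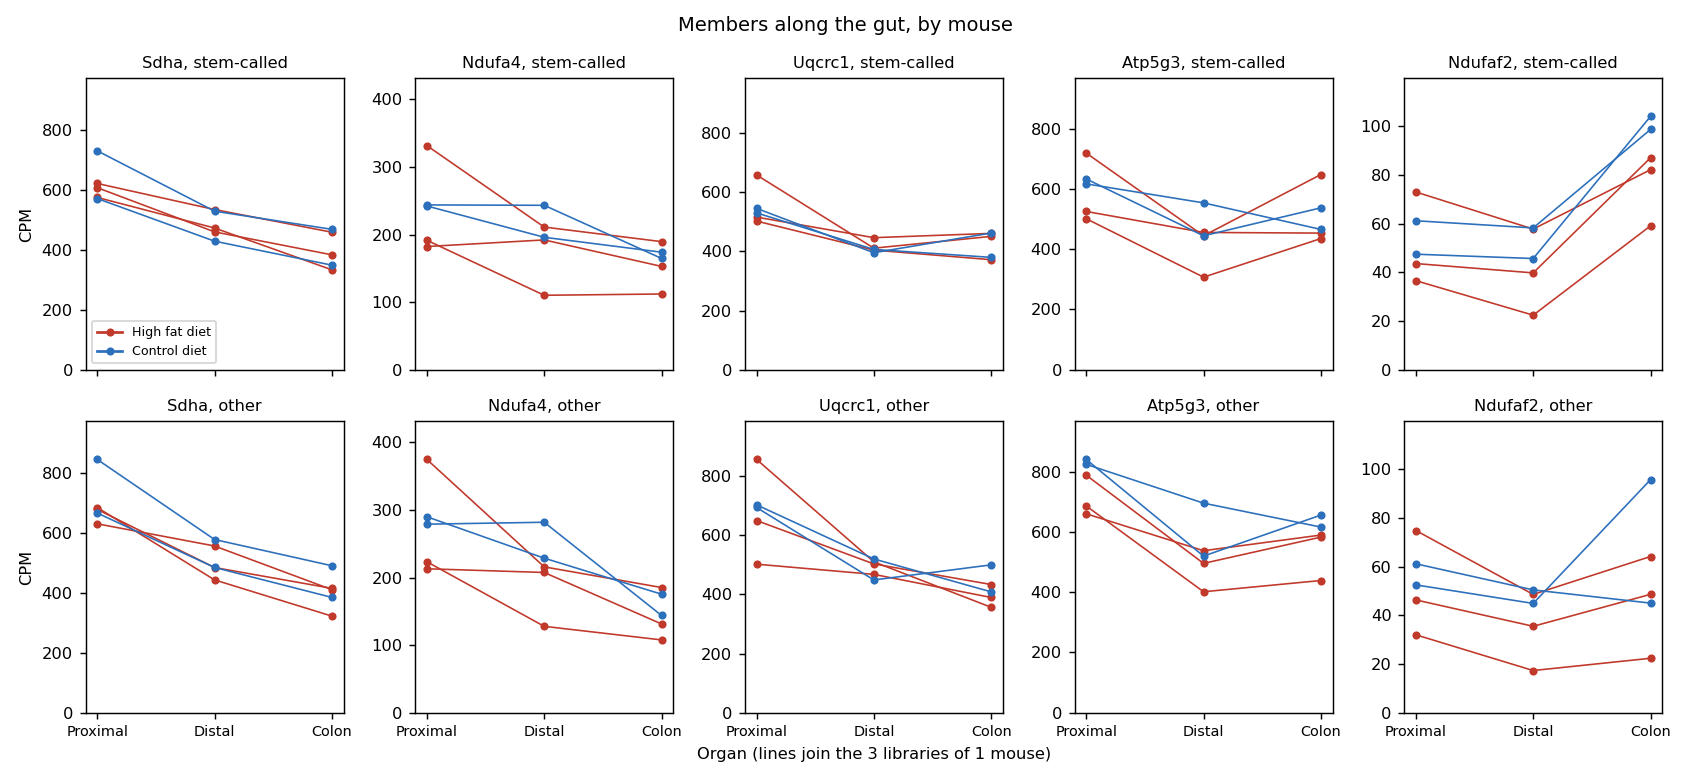
CPM of Sdha, Ndufa4, Uqcrc1, Atp5g3 and Ndufaf2 in the proximal and distal small intestine and the colon, in stem-called cells (top) and other cells (bottom); each line joins the 3 libraries of 1 mouse, high fat diet in red and control diet in blue. Sdha declines along the gut in every mouse in both populations, and Ndufaf2 is highest in the colon in stem-called cells of all 5 mice.

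The colon was compared with the mean of both parts of the small intestine. In other cells, 11 of 86 members were called lower in the colon and none higher (12.5% and 16.4% of all genes), and the median of all members was -0.10. With the mouse as a block there were 16 lower and 1 higher (19.5% and 20.5%). In both settings members were called lower about as often as all genes, and higher less often, so the lower calls below are no trait of the members as a group. Sdha had 410.1, 322 and 414 CPM in colon other cells of high fat diet mice and 489.8 and 384 CPM in those of control mice, below its own proximal and distal values given above in every mouse (log2 -0.59, SE 0.11, adjusted p = 0.00118). Ndufa4 had 185, 108 and 131 CPM and 175 and 144 CPM in colon other cells, against 375, 223 and 213 CPM and 289.9 and 279 CPM in proximal ones and 216, 128 and 207 CPM and 229 and 282 CPM in distal ones. Each mouse was lowest in its colon (-0.74, SE 0.18, adjusted p = 0.00767), and the call was lost without control diet mouse 2 (-0.66, adjusted p = 0.124). Uqcrc1 had 389.9, 357 and 434 CPM and 500.2 and 409 CPM in the colon, against 503, 857 and 650.2 CPM and 694 and 703 CPM in the proximal and 468, 510.5 and 503 CPM and 449 and 520.2 CPM in the distal small intestine. It was lower in the colon than in the proximal part in every mouse, but control diet mouse 1 had a higher colon than distal value (-0.49, SE 0.13, adjusted p = 0.0123). The call of Uqcrc1 was lost when high fat diet mouse 2 or either control mouse was left out (adjusted p = 0.0531, 0.0503 and 0.167).

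Among the other members called lower in the colon were Ndufaf6 (-0.60, SE 0.17, adjusted p = 0.017), Uqcrc2 (-0.40, adjusted p = 0.0131), Ndufa10 (-0.35), Atp5b (-0.32, adjusted p = 0.0459), Ndufs1 (-0.29, adjusted p = 0.0422), Atp5a1 and Atp5c1. Ndufs1 carries iron-sulfur clusters of complex I, Uqcrc1 and Uqcrc2 are the core proteins of complex III, and Atp5a1, Atp5b and Atp5c1 are the alpha, beta and gamma subunits of the ATP synthase head and stalk. The count was 7, 2 and 7 without the first, the second and the third high fat diet mouse and 5 and 1 without control diet mice 1 and 2. It was 4 when cells that held an immune marker UMI were left out. Ndufa1, a small accessory subunit of complex I, was called higher in the colon only with the mouse as a block (log2 0.47, adjusted p = 0.0102), with 61.4, 87.1 and 127 CPM in colon other cells of high fat diet mice and 76.6 and 153 CPM in those of control mice, against 67.9, 73.3 and 67.5 CPM and 55.3 and 109.9 CPM in proximal ones.

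In stem-called cells the colon differed little from the small intestine over all members (median 0.02, with 37 of 85 estimates below 0). Ndufaf2 was called higher and Sdha lower, which is 1 of 85 in each direction against 10.7% and 7.31% of all genes. Ndufaf2 had 82.2, 59.1 and 87.1 CPM in colon stem-called cells of high fat diet mice and 104 and 98.7 CPM in those of control mice, against 73.0, 36.6 and 43.6 CPM and 47.5 and 61.2 CPM in proximal ones and 57.8, 22.4 and 39.8 CPM and 45.7 and 58.3 CPM in distal ones. Every mouse was highest in its colon (log2 0.83, SE 0.20, adjusted p = 0.00676), but the call was lost when the third high fat diet mouse (0.74, adjusted p = 0.0726) or control diet mouse 1 (0.73, adjusted p = 0.0806) was left out. Sdha had 458, 333 and 383 CPM and 468 and 348 CPM in colon stem-called cells, against 621, 574 and 607 CPM and 729 and 570.3 CPM in proximal and 534, 472 and 459 CPM and 528 and 428 CPM in distal ones, and declined along the gut in each mouse (-0.48, SE 0.12, adjusted p = 0.0079). With the mouse as a block, 5 members were called higher (Ndufa1, Ndufaf2, Uqcr10, Cox5a and Cox5b) and 3 lower (Sdha, Uqcrq and Ndufa4), against 14.9% and 11.7% of all genes.

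Among the pathway lists, the regulator Esrrg was lower in the distal than in the proximal small intestine (-1.31, adjusted p = 0.0258, in stem-called and -2.04, adjusted p = 0.000526, in other cells), and Ppara was lower in the colon than in the small intestine (-1.28 and -1.54). In other cells of the colon, 7 carriers and assembly factors, 4 citric acid cycle genes (Mdh2 at -0.71) and 3 regulators were called lower and none higher. The lower calls were 18.9%, 30.8% and 20% of the 3 lists, against 12.5% of all genes. No mitochondrially encoded gene was called in any of the 4 organ comparisons. The 9 enterocyte markers summed to 1090 to 1304 CPM in distal other cells of high fat diet mice and 793 to 2673 CPM in those of control mice, against 4186 to 4667 CPM and 2279 to 2917 CPM in proximal other cells, with no marker at 0 in either. The 6 goblet cell markers went the other way, with 7778 to 17401 CPM and 6008 to 11774 CPM in distal other cells, against 2567 to 3095 CPM and 2676 to 2699 CPM in proximal ones. Their part in the differences between organs was not tested.

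The third comparison was between the diets, which the study set out to compare. No member was called in any organ or population with edgeR, nor with DESeq2 or under any other alternative analysis, and every edgeR adjusted p of a member was 1. The background was low as well: 0.122% of genes were called in either direction in proximal stem-called cells and 0.0839% in proximal other cells, 0.0081% and 0.00699% in the distal small intestine, and 0% in both populations of the colon. At an unadjusted p under 0.05 there were 1, 2 and 1 members in stem-called cells, and 0, 5 and 6 in other cells, of the proximal and distal small intestine and the colon. Of all genes, 3.72%, 2.67% and 2.54% passed the same threshold in stem-called cells and 3.1%, 2.01% and 3.44% in other cells.

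The summed levels of several cell type marker lists did not overlap between the diets in some of the sums. Enterocyte and Paneth cell markers are described first, and none of these markers was called between the diets. The summed 9 enterocyte markers were 1136 to 2350 CPM in the high fat diet and 753 to 896 CPM in the control diet in proximal stem-called cells, and 4186 to 4667 CPM and 2279 to 2917 CPM in proximal other cells. The 6 Paneth cell markers summed to 127 to 335 CPM and 627 to 1331 CPM in proximal stem-called cells and to 240 to 493 CPM and 794 to 1106 CPM in proximal other cells. In distal other cells they summed to 1453 to 6838 CPM and 654 to 655 CPM. The diets did not overlap in any of these 5 sums. Enterocyte markers in colon other cells separated the other way, at 242 to 462 CPM in the high fat diet and 498 to 512 CPM in the control diet. In proximal stem-called cells the 5 myeloid markers summed to 140 to 237 CPM and 293 to 396 CPM. The colonocyte, enteroendocrine and tuft cell lists did not overlap there either. The part of the cell types in the diet estimates was not tested.

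The summed level of the members overlapped between the diets in stem-called cells of each organ. It was 21729 ± 3551 CPM in the high fat diet and 22563 ± 59.8 CPM in the control diet in proximal stem-called cells (SD, n = 3 and 2), 17346 ± 2919 and 19167 ± 1225 CPM in distal ones, and 19741 ± 4131 and 20592 ± 1692 CPM in colon ones. In other cells it was 24847 ± 2647 and 27134 ± 37.6 CPM, 19207 ± 2379 and 21873 ± 2160 CPM, and 19148 ± 3247 and 23558 ± 2077 CPM in the same order of organs. The means of the high fat diet were lower in all 6 pairs, by less than the SD of the high fat diet mice in every pair except the distal and colon other cells. Complex II varied little between mice in proximal stem-called cells, at 1437 ± 18.1 CPM in the high fat diet and 1529 ± 30.3 CPM in the control diet, and the diets did not overlap there. Nor did they overlap in proximal other cells for complexes II and V (log2 -0.17 and -0.12, high fat over control diet), or in colon other cells for complexes I, III and IV (-0.33, -0.36 and -0.39) and for the sum of all members. No test was run on these sums. Most sums of the complexes overlapped, and with 3 and 2 mice a separation is frequent even without a difference. Complex II overlapped in distal stem-called cells, at 1146 ± 42.6 and 1146 ± 101 CPM. In proximal stem-called cells complex I had 5869 ± 910 CPM in the high fat diet and 6080 ± 266 CPM in the control diet, complex III 2825 ± 526 and 2928 ± 140 CPM, complex IV 4339 ± 1230 and 4641 ± 205 CPM, and complex V 6932 ± 828 and 7076 ± 133 CPM.

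**Figure D4:**
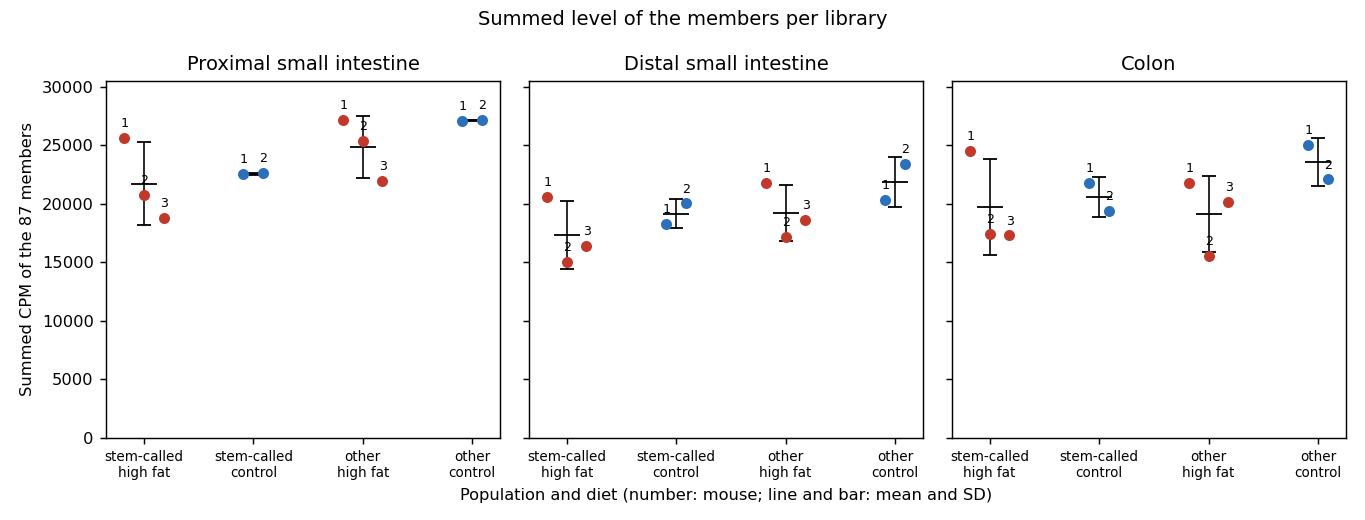
Summed CPM of the 87 members in each library, in stem-called and other cells of each organ, with high fat diet mice in red, control diet mice in blue, mouse numbers beside the points, and lines and bars for the mean and SD. High fat diet mouse 1 is the highest of its group in every panel, and the diets overlap in stem-called cells of all 3 organs.

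Over single members, the median log2 difference, high fat minus control, was -0.02, -0.26 and -0.05 in stem-called cells of the proximal and distal small intestine and the colon, and -0.09, -0.30 and -0.30 in other cells, while the medians of all genes lay between -0.02 and 0.01. Estimates were below 0 for 69 of 85 members in distal stem-called cells, 75 of 86 in distal other cells and 81 of 86 in colon other cells. The SE of a single member had a median of 0.27 to 0.29 in the 6 comparisons. With 1 mouse left out, the median over members was -0.21 (without high fat diet mouse 1) to 0.12 (without high fat diet mouse 3) in proximal stem-called cells, -0.33 (without high fat diet mouse 1) to -0.11 (without control diet mouse 2) in distal ones, and -0.20 (without high fat diet mouse 1) to 0.076 (without high fat diet mouse 3) in colon ones. In other cells it was -0.20 (without high fat diet mouse 1) to 0.042 (without control diet mouse 2) proximally, -0.41 (without control diet mouse 1) to -0.19 (without control diet mouse 2) distally, and -0.37 to -0.23 in the colon, so its sign depended on single mice everywhere but in distal cells and colon other cells. The 95% interval of the difference lay within a 2-fold change in either direction for 70 of 85 members in proximal and 54 and 62 of 85 in distal and colon stem-called cells, and for 67, 51 and 51 of 86 in other cells.

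The members with the smallest p in each comparison did not pass the correction. Lack of overlap is stated below as a description, since values of 3 and 2 mice often separate without a difference. Cox6b2 was higher in the high fat diet in proximal stem-called cells, at 8.59, 9.09 and 7.20 CPM in high fat diet mice and 2.55 and 3.87 CPM in control mice. The diets did not overlap (log2 1.37, SE 0.52, 95% interval 0.25 to 2.49, unadjusted p = 0.0198, adjusted p = 1). Proximal other cells showed 5.56, 5.64 and 4.29 CPM in high fat diet mice and 2.01 and 1.95 CPM in control mice (1.42, SE 0.66). Those values come from the same mice and are no independent repeat. Ndufaf6 and Ndufs1 followed in proximal stem-called cells, at 0.37 and 0.20, and Ndufaf3 and Ndufa13 were next in proximal other cells.

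Distally, Ndufa6, an accessory subunit of complex I, had 147, 93.9 and 106 CPM in stem-called cells of high fat diet mice and 144 and 197 CPM in those of control mice. High fat diet mouse 1 lay above control diet mouse 1, so the diets overlapped (log2 -0.60, SE 0.23, unadjusted p = 0.0203). Cox7a1 had 3.27, 4.98 and 6.75 CPM and 3.30 and 17.3 CPM, and its estimate of -1.18 (SE 0.54, 95% interval -2.34 to -0.02) turned to 0.54 without control diet mouse 2. Ndufc1 had -0.60 in stem-called and -0.64 in other cells. Ndufv3, a small subunit of the flavoprotein part of complex I, had 121, 91.5 and 85.8 CPM in distal other cells of high fat diet mice and 124 and 123 CPM in those of control mice, without overlap (-0.38, SE 0.16). Atp5k had 199, 96.9 and 120.3 CPM and 193 and 254 CPM there, with overlap through high fat diet mouse 1 (-0.75, SE 0.30).

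In the colon, Atp5k had 184, 115 and 184 CPM in other cells of high fat diet mice and 345 and 197 CPM in those of control mice, without overlap (log2 -0.76, SE 0.30). Ndufa13, an accessory subunit of complex I also known as GRIM-19, had 238, 134 and 173 CPM and 332 and 228 CPM, with overlap (-0.65, SE 0.28). Atp5j, which encodes coupling factor 6 of ATP synthase, had 280.1, 202 and 255 CPM and 318 and 329 CPM, without overlap (-0.43, SE 0.19). Ndufs1 in colon stem-called cells went the other way, at 199.9, 152 and 160.5 CPM in high fat diet mice and 135 and 135 CPM in control mice without overlap (0.38, SE 0.16). All adjusted p-values of these members were 1. Sdha, which declined along the gut in every mouse in both populations, had diet estimates of -0.22 to 0.00.

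Diet estimates of the members went with the length of their coding sequence in the distal small intestine and the colon. Members differ in coding length from 156 to 2181 bases, and 84 of 85 had a length. Split at the median length of 442.5 bases (438 in other cells), the 42 shorter members had a median diet estimate of -0.35 and the 42 longer members of -0.07 in distal stem-called cells, and the 43 shorter and 42 longer members had -0.44 and -0.12 in distal other cells. In the colon the medians of shorter and longer members were -0.16 and 0.05 in stem-called cells and -0.45 and -0.22 in other cells, and in the proximal small intestine -0.04 and 0.03, and -0.13 and -0.06. Spearman's rho between length and diet estimate across members was 0.70 in distal stem-called and 0.72 in distal other cells, against 0.05 and 0.06 across all genes with a length. Members share their libraries and are not independent, so this is a description. Genes other than members with lengths in the same ranges had medians of -0.13 (shorter) and 0.01 (longer) in distal stem-called cells and -0.13 and 0.02 in distal other cells. With 1 mouse left out, the median of shorter members was -0.71 (without high fat diet mouse 1) to -0.25 in distal stem-called cells and that of longer members -0.17 to 0.0093. In distal other cells the medians were -0.68 to -0.32 and -0.21 to 0.0018, and the shorter members had the lower median without any 1 mouse in both populations. In proximal stem-called cells the shorter members had -0.44 when the first high fat diet mouse was left out and 0.13 when the third was. The part of coding length in the diet estimates was not tested.

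**Figure D5:**
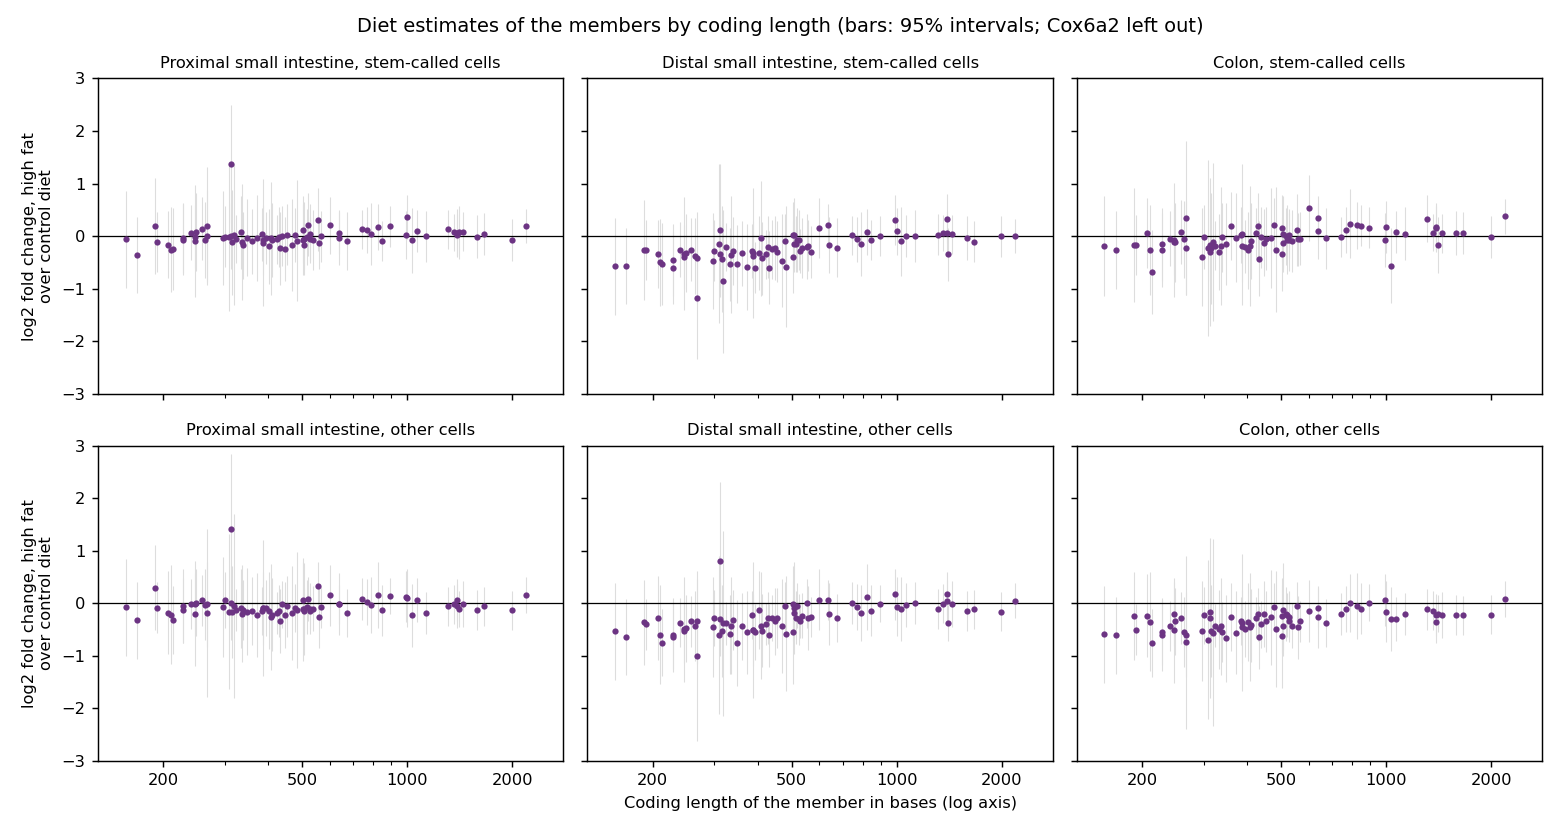
Diet estimate of each member (log2, high fat over control diet) against its coding length in bases (log axis), in 3 organs and both populations, with 95% intervals as bars and Cox6a2 left out. Most shorter members lie below 0 in the distal small intestine and in colon other cells, and longer members lie nearer 0; nearly all intervals cross 0.

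The pathway lists gave no call between the diets in any comparison. Their median estimates in stem-called and other cells were -0.38 and -0.42 (proximal), -0.32 and -0.55 (distal) and -0.34 and -0.64 (colon) for the mitochondrially encoded genes, and 0.13 and 0.05, 0.05 and 0.01, and 0.13 and -0.02 for the citric acid cycle genes. Tests of whether the diet difference itself differed between organs, or between stem-called and other cells, called no member (0% of genes, or 0.00699% for other cells of the colon against the proximal small intestine). In the colon, the diet difference of stem-called minus that of other cells had a median of 0.24 over members, with 15 of 85 members at an unadjusted p under 0.05, against 5.01% of all genes, and 0 called; the colon libraries of high fat diet mice 1 and 2, whose depth differed most between the populations, are part of it.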

How the data were processed

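Single-cell RNA was measured in 15 libraries (3 organs of 5 mice). The authors deposited raw UMI counts per gene and cell and a table of cells with diet, organ, mouse and stem call; the genome build is mm10 per the labels, and the aligner and counting tool are not given in the sources used here. The counts of each of the 18919 cells summed to the total in the authors' table. The lowest cell had 538 UMIs; no filter on cells or doublets was added. That table numbers the control mice 1 and 3 and the labels 1 and 2, so its mouse 3 was taken as control diet mouse 2 by elimination.

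Counts were summed per mouse, organ and stem call (30 sums of at least 20 cells). edgeR 4.0.16 (R 4.3.3, limma 3.58.1) fitted a quasi-likelihood model with TMM scaling and its filter on low counts to all genes. Organs and diets were tested in 6 group means over the 15 sums of a population, and stem-called against other cells in all 30 sums with the library as a block. P-values were adjusted over all genes tested (Benjamini-Hochberg, threshold 0.05). The code was tested on simulated data. Alternatives were DESeq2 1.42.0 as test and as size factors, no filter on low counts, no mitochondrially encoded genes, a stem call on cells thinned to 3000 UMIs (961 cells were shallower and left out, and the stem-called colon sum of high fat diet mouse 2 fell under 20 cells), no cells with a UMI of 6 immune markers (3242 cells), blocks, and each mouse left out. Tables and figures used Python 3.11.15, numpy 2.4.6, pandas 2.3.3, scipy 1.17.1 and matplotlib 3.10.9.

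Samples of 1 mouse come from the same animal, and their deviations from the group means correlated at 0.16 to 0.77 over 24 pairs (the 2 control mice mirror each other about their mean and count as 1), so organs are paired by mouse and block values stand beside the organ results. The genes named were those called, at most 8 of smallest p per complex and direction, the 3 of smallest p where fewer than 3 were called, and isoforms of complex IV. The members and gene lists were chosen with earlier results of these data known. Promoters are RefSeq sequences of GRCm38.p6. One member is counted in the totals, and its own values are not reported here.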

Additional observations from a re-analysis of the deposited data

Results flagged for a closer look

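The difference between stem-called and other cells itself differed between organs for 2 members, out of 85 tested (1.84% of 13544 genes were called higher and 2.21% lower, edgeR with the library as a block). For Ndufaf2, the assembly factor, stem-called minus other was 0.58 higher on the log2 scale in the colon than in the small intestine. For Ndufa4 of complex IV it was 0.29 higher. Both rest on colon values in which stem-called cells were higher than other cells (Ndufaf2) or near them (Ndufa4), while Ndufa4 was lower in stem-called cells of the small intestine. No member remained called when the stem call was repeated at 3000 UMIs (without the stem-called colon sum of high fat diet mouse 2, which fell under 20 cells), when cells with an immune marker UMI were left out, or without high fat diet mouse 2, high fat diet mouse 3 or control diet mouse 2. Colon stem-called cells of high fat diet mice 1 and 2 were few (79 and 27 cells) and deeper than the other cells of their libraries, and the part of this in the 2 calls was not tested.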

How the results depend on the processing

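Diet gave 0 calls of members under every alternative. Of the 3 members of smallest p per diet comparison, whose estimates were recomputed 1 by 1, Cox7a1 in distal stem-called cells changed sign, at -1.77 to 0.54 with 1 mouse left out, against -1.18 with all. Stem-called against other cells depended on pairing. With no replicate block for the library, 4, 2 and 2 members were called in the proximal and distal small intestine and colon, against 70, 51 and 31. With 1 mouse left out the ranges were 39 to 66, 19 to 52 and 8 to 41. In the colon DESeq2 called 48, the 3000-UMI stem call 51, also without the stem-called sum of high fat diet mouse 2, and the set without immune marker cells 59. The organ difference of that comparison gave 2 calls, 1 without the filter on low counts, 0 with no replicate block, 0 at 3000 UMIs, 0 without immune marker cells and 0 to 2 with 1 mouse left out. The mouse as a replicate block raised the organ counts: distal minus proximal to 14 from 0 in stem-called and to 40 from 5 in other cells, colon minus small intestine to 8 from 2 and to 17 from 11. Distal minus proximal was 1 in stem-called cells with DESeq2 and 1 without immune marker cells; in other cells it was 15 with DESeq2, 2 without the filter and 0 to 1 with 1 mouse left out. Colon minus small intestine was 1 to 3 in stem-called cells with 1 mouse left out; in other cells it was 7 without the filter, 7 at 3000 UMIs, 4 without immune marker cells and 1 to 7 with 1 mouse left out. The summed complex II, high fat over control diet, moved from -0.09 to -0.11 (log2) in proximal stem-called cells without immune marker cells, and in distal ones from 0.00 to between -0.087 and 0.093 with 1 mouse left out. The cause of these changes was not tested, except that leaving out a mouse also leaves fewer samples.

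A block on mouse number changed no diet call. Numbers 1 and 2, or the cell table's numbers, do not mark shared animals across diets, and the correlations of same-numbered mice were -0.00 to 0.68 (12 pairs) and 0.27 to 0.50 (6 pairs). With 3 and 2 mice per diet the median SE of a member was 0.27 to 0.29 on the log2 scale, and the smallest sum was the stem-called colon sum of high fat diet mouse 2, with 321496 UMIs from 27 cells. The stem call needs 1 UMI of Lgr5 or eGFP, so other cells hold stem cells that were not called.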

Other observations

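Within a library, cells were ranked by their summed enterocyte, goblet cell or stem cell markers, a description added after the values of the members had been seen, in which the top 5% of cells are a range and not a type. Cox7a1 stood at 155.5 ± 63.0 CPM in the proximal cells with most enterocyte markers (SD over 5 mice) and at 85.1 ± 53.3 CPM in the next 5%, at 13.9 ± 3.95 CPM in those with most goblet cell markers, and at 3.46 ± 2.46 CPM in those with most stem cell markers. In the distal small intestine it was 109 ± 81.6 CPM, 18.6 ± 12.4 CPM and 1.45 ± 1.78 CPM in the same 3 ends. All members together had 32835 ± 3435 CPM, 16888 ± 2597 CPM and 19367 ± 2569 CPM at the proximal ends. Cox7a2l was spread more evenly, at 182 ± 65.6 CPM, 128 ± 42.7 CPM and 237 ± 56.0 CPM.

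Among members with a mean over 20 CPM, both mice numbered 1 lay above the other 3 mice for 46 of 79 members in colon stem-called cells and 38 of 79 in colon other cells, against 20.4% and 27.1% of all such genes. In the proximal small intestine it was 31 of 79 and 24 of 80 (12.7% and 11.9% of genes), and in the distal small intestine 17 of 77 and 14 of 79 (18.1% and 18.9%). The labels do not say that a number marks a shared batch.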
